A study of Rattus norvegicus with 18 samples.

Results

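The genes described here are 41 genes of the cell division cycle in rat cortical cultures exposed to glutamate. They were chosen by name: a row of the deposited count tables was taken when its gene symbol, ignoring case, matched a fixed list, and all 41 were found among the 31463 rows. The matching used names and no measured value, but the list itself was chosen with earlier results of these data known. All 41 had a count in each of the 18 libraries, and all 41 passed the filter on low counts that left 14398 rows for testing.

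The study sequenced mRNA from primary neuro-glial cultures of newborn Wistar rat cortex on day 10 in vitro, 4 h after a glutamate challenge, to ask whether products of human glial progenitor cells protect neurons. Each of 6 groups held 3 libraries. The Control group received no glutamate. The Glutamate group received 100 µM glutamate, the excitatory transmitter that kills neurons when it overstimulates their receptors. The Memantine group received 100 µM memantine, which blocks NMDA receptors for glutamate; glutamate is not named in its label, whereas the methods describe both as given together. The Glutamate_vesicles group was pretreated with extracellular vesicles of glial progenitor cells derived from human induced pluripotent stem cells. The Glutamate_secret and Glutamate_BPC groups are named after glutamate and an added preparation, and the labels do not spell out which preparation each name stands for. All 6 groups came from the same kind of culture, in which neurons, astrocytes, oligodendrocyte precursors and microglia grow together. In all of them cytosine arabinoside, a nucleoside that blocks DNA synthesis, had been added early in culture to hold back dividing glia. The study's methods say in general that experiments were repeated on unrelated cultures, without tying the sequenced libraries to them, and the labels do not say which cultures the 3 libraries of a group came from. Each p-value therefore measures the spread between these libraries, which may be technical.

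A cell that commits to divide first loads the MCM helicase onto replication origins with the help of Cdc6 and Cdt1, then copies its DNA in S phase with PCNA as the sliding clamp and ribonucleotide reductase as the source of deoxynucleotides. Cyclin A and cyclin B with the kinase Cdk1 then drive the cell into mitosis, where Aurora and Polo kinases, kinesins and checkpoint kinases build and survey the spindle until the anaphase-promoting complex, activated by Cdc20, lets the chromosomes part. Most of these transcripts are made only in cycling cells. Cortical neurons have left the cycle for good, while astrocytes, oligodendrocyte precursors and microglia can divide, which is why these genes are read as a measure of dividing glia in such cultures.

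Transcription of the S phase genes is known to run through E2F sites, and that of the mitotic genes through CCAAT boxes paired with a cell cycle homology region (CHR). RefSeq promoter windows of assembly GRCr8, from 250 bases before to 50 bases after the annotated start, were matched by symbol for 32 of the 41 genes. The deposited counts use build rn6, so these positions apply only to the sequences. Windows were searched on both strands for the 5 letters that name the CCAAT box. The CHR was searched in 2 forms, first as TTTGAA and then as its variant TTCGAA. The E2F site was searched in 3 forms, of which the first was TTCCCGC. The second form searched for this site was written as TTCGCGC, and the remaining form was TTGGCGC. Neighbouring matches, of the same motif or of different ones, may share bases. A CCAAT box was found in 79.4% of the 34 windows of these genes against 37.5% of all 33469 rat windows of the same length, a CHR in 47.1% against 19.7%, and an E2F form in 41.2% against 7.52%. Uhrf1 had several windows, each counted, so the percentages are shares of windows rather than of genes. The motifs differed by role. Of the 14 windows of licensing, firing and DNA synthesis genes, 78.6% held an E2F form and 21.4% a CHR, whereas of the 16 windows of mitotic genes 12.5% held an E2F form and 68.8% a CHR. These are matches of letters, not tested sites.

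5 windows are printed, in lower case with the matches in capitals. Mcm5 and Cdc20 are among the genes with the smallest p-values against Control, Cdk1 holds all 3 kinds of motif and encodes the kinase of mitosis, and Mki67 and Birc5 both hold a CCAAT box and a CHR but differed in opposite directions between replicate numbers. Mcm5 lies at chr19:13488563-13488862 on the plus strand, Cdk1 at chr20:19265043-19265342 on the plus strand, Cdc20 at chr5:137255750-137256049 on the minus strand, Mki67 at chr1:199952544-199952843 on the minus strand and Birc5 at chr10:103571896-103572195 on the plus strand.
Mcm5: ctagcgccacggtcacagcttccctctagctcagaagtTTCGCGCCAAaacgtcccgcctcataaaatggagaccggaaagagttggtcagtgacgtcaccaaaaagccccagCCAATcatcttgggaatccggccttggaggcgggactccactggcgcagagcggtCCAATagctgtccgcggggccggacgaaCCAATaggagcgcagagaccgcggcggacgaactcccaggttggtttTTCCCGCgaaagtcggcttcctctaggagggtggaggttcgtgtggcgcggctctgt
Cdk1: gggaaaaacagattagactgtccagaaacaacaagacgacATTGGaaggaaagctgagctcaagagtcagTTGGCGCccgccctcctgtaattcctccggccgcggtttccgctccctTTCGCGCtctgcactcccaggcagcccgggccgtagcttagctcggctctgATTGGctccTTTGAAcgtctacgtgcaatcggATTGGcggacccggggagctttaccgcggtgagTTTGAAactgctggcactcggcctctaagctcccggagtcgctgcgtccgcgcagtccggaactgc
Cdc20: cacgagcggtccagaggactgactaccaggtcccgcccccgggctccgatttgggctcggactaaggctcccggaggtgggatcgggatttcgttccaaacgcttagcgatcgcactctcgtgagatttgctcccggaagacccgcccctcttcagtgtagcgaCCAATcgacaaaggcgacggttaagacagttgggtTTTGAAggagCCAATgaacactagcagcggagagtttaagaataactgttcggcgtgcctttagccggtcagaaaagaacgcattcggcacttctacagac
Mki67: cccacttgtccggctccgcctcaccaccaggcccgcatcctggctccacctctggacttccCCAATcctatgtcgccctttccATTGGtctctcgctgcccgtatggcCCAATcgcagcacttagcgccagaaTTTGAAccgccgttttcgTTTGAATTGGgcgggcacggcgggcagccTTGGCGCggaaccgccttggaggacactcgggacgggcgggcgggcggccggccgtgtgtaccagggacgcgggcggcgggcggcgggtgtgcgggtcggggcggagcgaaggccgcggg
Birc5: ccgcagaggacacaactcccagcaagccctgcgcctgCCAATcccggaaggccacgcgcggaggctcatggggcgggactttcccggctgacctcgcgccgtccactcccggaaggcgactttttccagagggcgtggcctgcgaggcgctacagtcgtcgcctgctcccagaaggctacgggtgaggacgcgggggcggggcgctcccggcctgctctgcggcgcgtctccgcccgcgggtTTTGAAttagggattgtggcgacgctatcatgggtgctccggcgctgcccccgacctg
The Mcm5 window holds 3 CCAAT boxes and 3 E2F matches, 2 of them sharing bases, and no CHR. The Cdc20 window holds 2 CCAAT boxes and 1 CHR and no E2F match.

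Library totals ran from 8409574 counts (Control 1) to 17206354 counts (Glutamate_vesicles 2), and the 41 genes together held from 2270 counts (Control 1) to 27819 counts (Glutamate_vesicles 3). Levels are CPM, the count divided by library size and brought to a common scale, with the library size corrected by edgeR's trimmed mean (TMM), and fold changes and adjusted p-values come from edgeR's quasi-likelihood test fitted on all 14398 genes. Control 1 stood apart: ribosomal RNA took 43.0% of its counts, against 3.04% to 26.6% in the others, and its TMM factor was 0.417. Memantine 3 stood apart in its cell markers. The summed level of 10 neuron markers was 656 CPM in Memantine 3 and 3333 and 2328 CPM in Memantine 1 and 2, while the Control libraries had 2633, 2814 and 2105 CPM and the Glutamate libraries 1141, 604 and 631 CPM. The medians of the 41 genes that rest on these libraries are given with and without them. Counts of genes without overlap and counts within replicate numbers were taken only with them included. The same holds for the medians of other cell cycle genes and of cell markers. The 10 astrocyte markers were detected throughout, at a summed 3566 to 6538 CPM in Control and 5916 to 11828 CPM in Glutamate. Endothelial markers summed to at most 5.13 CPM in any library.

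The summed level of the 41 genes was lowest in Control and in 2 Memantine libraries. It was 648, 673 and 775 CPM in Control 1 to 3, 952, 1221 and 1126 CPM in Glutamate, and 617, 759 and 1201 CPM in Memantine. It was 1222, 1061 and 1351 CPM in Glutamate_vesicles, 1131, 1218 and 1284 CPM in Glutamate_secret, and 1206, 1110 and 1242 CPM in Glutamate_BPC. Every library of the groups with glutamate in their label thus lay above the 3 Control libraries, Memantine 1 and 2 lay below Control 3, and Memantine 3 lay within the range of Glutamate. In bulk RNA, a smaller share of non-dividing neurons, more dividing cells and more transcript per dividing cell cannot be told apart. The neuron markers lay the opposite way in the same libraries, with sums of 590 to 905 CPM in Glutamate_vesicles, 502 to 1063 CPM in Glutamate_secret and 681 to 1091 CPM in Glutamate_BPC, and their part in the result was not tested.

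Set against the summed astrocyte markers, the separation was not seen. A sum weights abundant markers most. The median fold changes of the same markers against Control, given below, were smaller than those of the 41 genes in Glutamate_vesicles, Glutamate_secret and Glutamate_BPC. Relative to the oligodendrocyte precursor and neural progenitor sums, the ranges of every group overlapped with Control as well. The summed level of the 41 genes was 16.1%, 18.9% and 11.9% of the astrocyte sum in Control and 13.1%, 20.6% and 9.52% in Glutamate, so the ranges overlapped. The same share was 12.6%, 19.8% and 10.7% in Memantine, 18.1%, 17.7% and 13.6% in Glutamate_secret and 15.4%, 14.2% and 9.13% in Glutamate_BPC. In Glutamate_vesicles it was 16.3%, 14.7% and 36.3%, and the high Glutamate_vesicles 3 had an astrocyte sum of 3718 CPM against 7491 and 7222 CPM in the other 2. The separation from Control also depended on the scaling: as CPM without ribosomal RNA rows and without TMM, the sums were 474, 990 and 1178 in Control and 831, 2009 and 1261 in Glutamate, which overlap, while all of Glutamate_vesicles (1245, 1624 and 1877) and of Glutamate_BPC (1325, 1515 and 1333) stayed above Control. Glutamate_secret, at 924, 1834 and 971 on that scale, overlapped, with 2 libraries below Control 3.

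**Figure D1:**
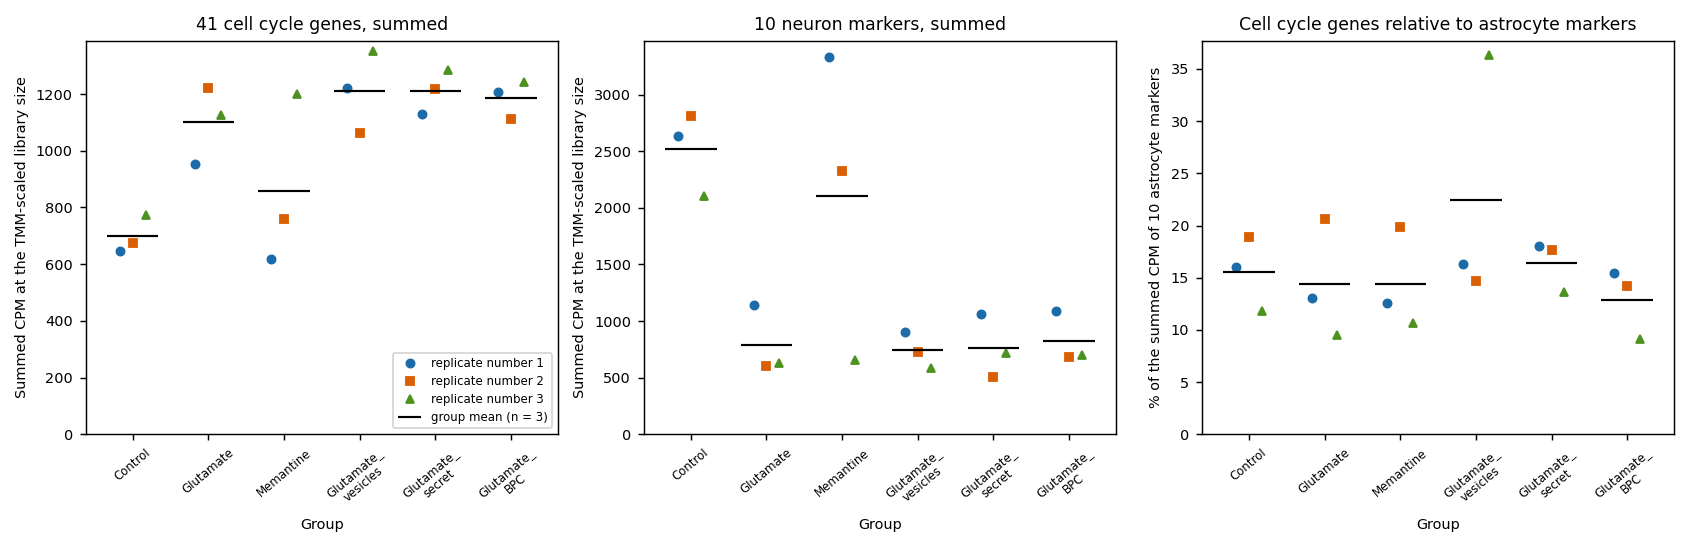
Each point is 1 library, its shape the replicate number and the line the group mean; the left and middle panels plot summed CPM of the 41 cell cycle genes and of 10 neuron markers, and the right panel the cell cycle sum as a percentage of the sum of 10 astrocyte markers. The cell cycle sums of Control, 648 to 775 CPM, lie below those of every group with glutamate in its label, Memantine 3 sits apart from Memantine 1 and 2 in the first 2 panels, and the ranges of the right panel overlap.

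Glutamate was compared with Control to see whether the challenge moved these genes. Fold changes were above 0 for 39 of the 41 genes (background 56% of all genes tested), with a median log2 fold change of 0.65 against 0.08 over all genes. Without Control 1 the median was 0.58 with 41 genes above 0, and without Glutamate 2 it was 0.49 with 34 above 0. For no single gene did the difference pass edgeR's quasi-likelihood test. An adjusted p below 0.05 was reached by 0 of 41 and by 0 of 14398 genes (0%). Of the 41, edgeR's likelihood-ratio test and DESeq2 called 0 as well. Here and below, counts from these other tests are of the 41 genes, without the share of all genes unless it is stated. An unadjusted p below 0.05 was reached by 4 genes, all higher by more than 1.5-fold (background 2.1% higher, 5.97% lower). These were Tpx2, Mcm5, Mcm7 and Top2a, and they became 2 without Control 2 and 1 without Glutamate 3. Here and below, counts from fits with a library left out have no share of all genes beside them unless stated. Their changes can therefore not be read as particular to these genes. In 12 genes the 3 Glutamate libraries all lay above the 3 Control libraries (background 4.48%), and in 0 all below (background 7.76%). Compared within each replicate number, 23 of the 41 were higher in Glutamate for all 3 numbers (background 13.5%). For all 3 numbers 0 were lower (background 14.6%). Libraries numbered 3 did not deviate together here, nor in Glutamate_vesicles against Glutamate or in Glutamate_secret and Glutamate_BPC against Control. Within-number counts in these comparisons may therefore not compare matched libraries.

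The first role is origin licensing and firing, in which Mcm2 to Mcm7 encode the 6 subunits of the replicative helicase, Cdc45 activates it, Cdc6 and Cdt1 load it and Gmnn (geminin) blocks reloading. Mcm5 was 8.28, 13.8 and 14.96 CPM in Control and 26.5, 21.1 and 27.9 CPM in Glutamate, without overlap (log2 fold change 1.02, SE 0.42, edgeR adjusted p = 0.522). Mcm7 was 33.4, 33.2 and 32.3 CPM in Control and 76.0, 37.8 and 61.5 CPM in Glutamate, again without overlap (0.83, SE 0.37, adjusted p = 0.584). Mcm2 was 4.57, 13.9 and 17.6 CPM in Control and 16.9, 22.8 and 18.2 CPM in Glutamate, where Glutamate 1 lay below Control 3. Of the 10 genes of this role, 9 had a fold change above 0 with a median of 0.81, and in 5 the libraries did not overlap, namely Mcm3, Mcm5, Mcm6, Mcm7 and Cdc45. Cdc6 was the exception at -0.32, with 28.3 CPM in Control 1 and 3.19 and 2.48 CPM in Control 2 and 3.

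The second role is DNA synthesis and the supply of nucleotides. Pcna, the clamp, was 59.1, 64.4 and 74.3 CPM in Control and 109, 85.7 and 137 CPM in Glutamate, with each Glutamate library above each Control library. Rrm2, the regulated subunit of ribonucleotide reductase, was 23.4, 23.0 and 26.3 CPM in Control and 29.3, 43.9 and 41.8 CPM in Glutamate, also without overlap. Rrm1, its large subunit, and Uhrf1, which carries DNA methylation over to new strands, did not overlap either. Tyms, the thymidylate synthase, overlapped, at 11.1 to 15.5 CPM in Control and 10.6 to 24.3 CPM in Glutamate. The log2 fold changes of the 5 genes ran from 0.19 for Tyms to 0.79 for Uhrf1.

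The cyclins came next, with their kinase and Foxm1. Ccnb1, cyclin B1, was 13.4, 9.47 and 17.98 CPM in Control and 20.4, 21.1 and 20.4 CPM in Glutamate, and Ccna2, cyclin A2, likewise lay above Control in each Glutamate library. Cdk1 was 15.1, 15.6 and 19.6 CPM in Control and 29.8, 14.9 and 38.1 CPM in Glutamate, where Glutamate 2 lay below all 3 Control libraries. Ccne1, the G1/S cyclin E1, differed least, at 21.1, 14.7 and 10.5 CPM in Control and 18.5, 8.19 and 19.3 CPM in Glutamate (log2 fold change -0.01). Foxm1, the transcription factor of the mitotic genes, had a log2 fold change of 1.14 at low levels, 6.56, 2.16 and 1.08 CPM in Control and 4.00, 9.52 and 6.90 CPM in Glutamate, with overlap.

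Ki-67 and topoisomerase II alpha are the usual histological marks of proliferation. Mki67, the gene of the Ki-67 antigen used to stain cycling cells, was 21.7, 34.2 and 42.7 CPM in Control and 30.1, 92.8 and 32.4 CPM in Glutamate. Top2a, the topoisomerase that untangles sister chromatids, was 24.0, 38.3 and 48.4 CPM in Control and 42.9, 125 and 60.3 CPM in Glutamate. For both genes Glutamate 2 held the highest value of all 18 libraries and the groups overlapped, with log2 fold changes of 0.65 and 1.04.

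In mitosis, all 7 mitotic kinase and checkpoint genes had fold changes above 0, from 0.45 for Plk1, the Polo-like kinase, to 1.05 for Birc5 (survivin, a subunit of the chromosomal passenger complex), and in each of the 7 the libraries overlapped. Among the 8 spindle, kinetochore and cytokinesis genes, Nusap1, a spindle microtubule-binding protein, did not overlap, and Tpx2, the activator of Aurora A, had the smallest p of the 41 genes. Tpx2 was 16.6, 22.5 and 24.2 CPM in Control and 24.1, 42.2 and 38.2 CPM in Glutamate, where Glutamate 1 lay just under Control 3 (log2 fold change 0.72, SE 0.29, edgeR adjusted p = 0.501). Cdc20 was 14.3, 16.7 and 21.3 CPM in Control and 28.5, 19.5 and 38.1 CPM in Glutamate, and Ube2c, the ubiquitin-conjugating enzyme of the anaphase-promoting complex, 10.6, 7.06 and 11.4 CPM against 17.9, 5.90 and 17.4 CPM, with overlap in both.

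**Figure D2:**
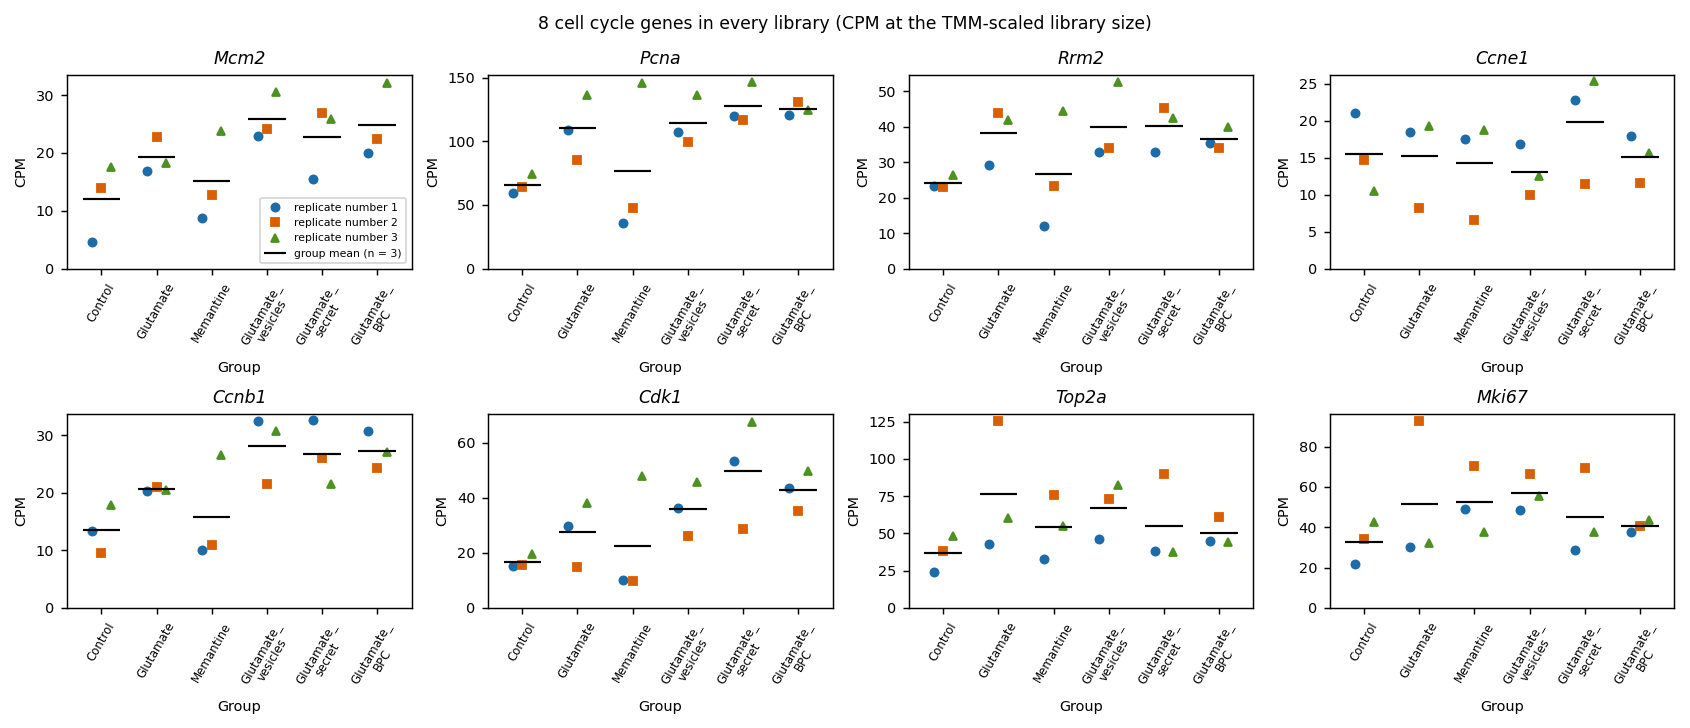
CPM of 8 genes in every library, by group; shapes and colours give the replicate number and lines the group mean of 3 libraries. Pcna and Rrm2 lie above Control in every library of the 4 groups with glutamate in their label, Ccne1 overlaps between all groups, and the highest Mki67 and Top2a values, 92.8 and 125 CPM, are those of Glutamate 2.

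The Memantine libraries lay on both sides. Against Glutamate, 38 of 41 genes had a fold change below 0 and 3 above it (background 48.4% above 0), with a median of -0.38. The median was -0.17 without Memantine 1, -0.25 without Memantine 2 and -0.68 without Memantine 3. With single libraries left out, 2 to 9 genes were above 0. Within each replicate number, 9 genes were lower for all 3 numbers, a share of 22% (background 17.4%). For all 3 numbers 0 were higher (background 15.9%). In 0 genes did the libraries separate in either direction (background 2.86%, made up of 1.74% higher and 1.13% lower). By edgeR's quasi-likelihood test 0 genes were called, of all genes 0%, with 0 of 41 at an unadjusted p below 0.05 (background 5.08%, or 4.86% higher and 0.201% lower by more than 1.5-fold), and edgeR's likelihood-ratio test and DESeq2 called 0. The smallest p-values belonged to Ccna2 (-0.57, SE 0.34), Tpx2 (-0.46, SE 0.29) and Uhrf1 (-0.63, SE 0.41), each with an adjusted p = 0.999. Pcna shows the split, with 35.5 and 47.9 CPM in Memantine 1 and 2, below every Control library, and 146 CPM in Memantine 3, above every Glutamate library. Cdk1 was 10.1, 9.66 and 47.9 CPM and Ccnb1 10.1, 10.99 and 26.6 CPM in the same 3 libraries, while Mki67 ran the other way at 49.2, 70.2 and 37.8 CPM. With Memantine 3 left out, and the spread taken from all groups, Pcna passed the test against Glutamate (log2 fold change -1.40, SE 0.30, edgeR adjusted p = 0.0325) as the only gene of the 41, and 1.73% of all genes were called.

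Against Control, Memantine had 34 of 41 genes with a fold change above 0 (background 59.9%), with a median of 0.31. None separated from Control (background 1.16% higher), and 0 of 41 passed edgeR's quasi-likelihood test, 0 at an unadjusted p below 0.05, and 0 by edgeR's likelihood-ratio test or DESeq2. The smallest p-values were those of Cdc45 (0.75, SE 0.44), Mcm5 (0.68, SE 0.42) and Mki67 (0.67, SE 0.45), each with an edgeR adjusted p = 1. Leaving out Control 1 gave a median of 0.18, leaving out Memantine 1 gave 0.58 and leaving out Memantine 3 gave -0.02. It turned to -0.22, and the genes above 0 to 13, when Control 1 and Memantine 3 were both left out; without Memantine 3 alone 20 genes were above 0.

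Glutamate_vesicles, Glutamate_secret and Glutamate_BPC were compared with Glutamate, the comparison that addresses what each name adds to glutamate. The labels do not spell out what was added in Glutamate_secret and Glutamate_BPC. The cell cycle genes differed little. Glutamate_vesicles had 30 of 41 genes above 0 (background 48.7%) with a median log2 fold change of 0.17, which was 0.04 without Glutamate 1, 0.35 without Glutamate 2 and 0.11 without Glutamate_vesicles 3. Mcm2 and Ccnb1 were higher without overlap (background 2.88% higher, 3.38% lower, 6.26% in all). Ccnb1 was 32.5, 21.5 and 30.7 CPM in Glutamate_vesicles against 20.4, 21.1 and 20.4 CPM in Glutamate. Within each replicate number 11 genes were higher for all 3 numbers, a share of 26.8% (background 16.4%), and 2 were lower (background 13.8%). Ccnb2 (0.60, SE 0.46), Plk1 (0.51, SE 0.41) and Ccnb1 (0.45, SE 0.37) had the smallest p-values, each with an edgeR adjusted p = 1.

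Glutamate_secret had 26 of 41 genes above 0 against Glutamate (background 49%) with a median of 0.11. The median was 0.02 without Glutamate 1, 0.33 without Glutamate 2, 0.20 without Glutamate_secret 1 and -0.09 without Glutamate_secret 2, so its sign turned on 1 library, and 19 to 35 genes were above 0 with single libraries left out. Ccnb1 and Ccnb2, the mitotic cyclins B1 and B2, were higher without overlap (background 1.4% higher, 2.01% lower, 3.41% in all). Ccnb2 was 32.4, 22.2 and 34.6 CPM in Glutamate_secret against 16.4, 15.3 and 20.9 CPM in Glutamate (log2 fold change 0.76, SE 0.46, edgeR adjusted p = 1). Aurka, Aurora kinase A, was 26.5, 13.5 and 30.8 CPM against 14.6, 9.39 and 16.5 CPM, with overlap (0.80, SE 0.47, adjusted p = 1). Cdk1 was 53.2, 28.7 and 67.7 CPM, higher than its same-numbered Glutamate library for every number, though the ranges overlapped (0.85, SE 0.55, adjusted p = 1). Within numbers, 18 genes were higher for all 3, a share of 43.9% (background 20.7%), and 2 were lower for all 3 (background 20.1%). Without TMM and without ribosomal RNA rows the median against Glutamate was -0.15 and 13 genes were above 0, where the median of all genes was -0.22.

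Glutamate_BPC had 26 of 41 genes above 0 against Glutamate (background 45.3%) with a median of 0.16, which was 0.07 without Glutamate 1 or Glutamate_BPC 3 and 0.33 without Glutamate 2. In 6 genes its libraries lay above Glutamate without overlap (background 2.88% higher, 4.24% lower, 7.13% in all), and all 6 act in mitosis: Ccnb1, Ccnb2, Aurka, Plk1, Cdc20 and Ube2c. Cdc20 was 59.5, 39.3 and 59.95 CPM in Glutamate_BPC against 28.5, 19.5 and 38.1 CPM in Glutamate (log2 fold change 0.88, SE 0.48, edgeR adjusted p = 1). Plk1 was 18.8, 15.4 and 14.96 CPM against 7.62, 13.1 and 10.5 CPM (0.65, SE 0.41, adjusted p = 1). Foxm1 differed the other way, at 1.27, 0.52 and 5.96 CPM against 4.00, 9.52 and 6.90 CPM, with overlap (-1.42, SE 0.78, edgeR adjusted p = 1); its fold change was -0.92 without Glutamate_BPC 2 and -2.94 without Glutamate_BPC 3. Within numbers, 13 genes were higher for all 3, a share of 31.7% (background 12.1%), and 1 was lower for all 3 (background 14.5%). In each of these 3 comparisons with Glutamate, edgeR's quasi-likelihood test called 0 of the 41 genes and 0% of all genes, 0 of the 41 were past an unadjusted p of 0.05 (backgrounds 1.08%, 0.681% and 1.07% in the order given), and edgeR's likelihood-ratio test and DESeq2 called 0. In the replicate-block fit 3 genes of Glutamate_secret and 2 of Glutamate_BPC were higher by more than 1.5-fold at an unadjusted p below 0.05, against 1.85% and 1.49% of all genes in that fit, and without the block 0 of the 41 against 0.313% and 0.396%, with 0.361% and 0.667% lower. The comparisons share the 3 Glutamate libraries.

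The same 3 groups were also compared with Control, which received neither glutamate nor a preparation. These comparisons share the 3 Control libraries with the comparison of Glutamate and Control, so they are not independent of it or of each other. An odd Control library would move all of them. Glutamate_vesicles had 39 of 41 genes above 0 (background 52.2%) with a median log2 fold change of 0.88 against 0.04 over all genes, and 26 genes lay above Control without overlap (background 9.72%). An unadjusted p below 0.05 was reached by 16 genes, all higher by more than 1.5-fold (background 3.97%), and 35 were higher for all 3 replicate numbers (background 23.5%). No gene of the 41 passed edgeR's quasi-likelihood test, against 0.0139% of all genes, nor edgeR's likelihood-ratio test, while DESeq2 called 1, Tpx2, against 3.39% of all genes, so that count is no more than its background. Tpx2 was 46.3, 32.7 and 43.6 CPM against 16.6, 22.5 and 24.2 CPM in Control (0.95, SE 0.30, edgeR adjusted p = 0.23; 0.94, SE 0.27, DESeq2 adjusted p = 0.0263). Mcm5, at 38.8, 19.9 and 26.3 CPM, stood at 1.18 on the log2 scale (SE 0.42, edgeR adjusted p = 0.281) and Ccnb1 at 1.05 (SE 0.38, adjusted p = 0.282).

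In Glutamate_vesicles the helicase genes Mcm2, Mcm3, Mcm5, Mcm6 and Mcm7, the synthesis genes Pcna, Rrm1, Rrm2 and Uhrf1, and 5 of the 7 mitotic kinase and checkpoint genes were among those separated from Control. Mki67 was 48.5, 66.7 and 55.3 CPM, above all 3 Control libraries, and Top2a 45.9, 73.2 and 82.5 CPM, where the lowest overlapped with Control 3. Pcna was 108, 99.5 and 137 CPM, Rrm2 33.0, 33.8 and 52.7 CPM and Mcm2 22.9, 24.2 and 30.6 CPM, all without overlap. Cdk1 stood at 36.3, 26.1 and 45.8 CPM and was likewise separated. Ccne1, at 16.8, 9.98 and 12.6 CPM, overlapped with Control. The 16 genes past an unadjusted p of 0.05 and 1.5-fold became 3 without Control 1, 6 without Control 2, 9 without Glutamate_vesicles 1 and 4 without Glutamate_vesicles 3. In the replicate-block fit, which compares libraries of the same number, they were 27, against 7.5% of all genes in that fit. Without Control 1 the median was 0.77, and 2.34% of all genes passed that criterion, below the 3.97% with all libraries.

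Glutamate_secret had 40 of 41 genes above 0 against Control (background 53.5%) with a median of 0.78, and 23 separated upwards (background 6.88%). Past an unadjusted p of 0.05 and 1.5-fold stood 12 genes (background 4.1%), and 27 were higher for all 3 numbers (background 16.5%). The 12 genes became 5 without Control 2, 6 without Glutamate_secret 1 and 4 without Glutamate_secret 3. Without Control 1 they were 9 and the median was 0.70. No share of all genes is set beside these left-out counts. No gene of the 41 and 0% of all genes passed edgeR's quasi-likelihood test, and edgeR's likelihood-ratio test and DESeq2 called 0. Aurka was 26.5, 13.5 and 30.8 CPM against 5.71, 8.29 and 12.1 CPM in Control (1.42, SE 0.48, edgeR adjusted p = 0.248). Cdk1, at 53.2, 28.7 and 67.7 CPM, had the largest log2 fold change of the 8 genes followed in every library, at 1.57 (SE 0.56, adjusted p = 0.271), and Mcm5, at 23.9, 23.5 and 34.0 CPM, had one of 1.12 (SE 0.42, adjusted p = 0.307). Pcna was 120, 117 and 147 CPM, Rrm2 32.9, 45.2 and 42.3 CPM and Ccnb1 32.6, 26.0 and 21.5 CPM, each above Control throughout. Mki67 (28.8, 69.3 and 37.8 CPM), Top2a (38.3, 90.1 and 37.3 CPM), Mcm2 (15.4, 26.8 and 25.9 CPM) and Ccne1 (22.8, 11.5 and 25.3 CPM) overlapped with it.

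Glutamate_BPC had 36 of 41 genes above 0 against Control (background 47%) with a median of 0.82, and 27 separated upwards (background 12.2%). Past an unadjusted p of 0.05 and 1.5-fold stood 16 genes (background 3.9%), and 30 were higher for all 3 numbers (background 21.2%). The 16 genes became 7 without Control 1, Control 2 or Glutamate_BPC 3 and 8 without Glutamate_BPC 1. No share of all genes is set beside these left-out counts. Without Control 1 the median was 0.62. Again 0 of 41 and 0% of all genes passed edgeR's quasi-likelihood test, and edgeR's likelihood-ratio test and DESeq2 called 0. Cdc20, at 59.5, 39.3 and 59.95 CPM against 14.3, 16.7 and 21.3 CPM, stood at 1.60 on the log2 scale (SE 0.49, edgeR adjusted p = 0.3), Mcm5, at 30.7, 22.2 and 36.3 CPM, at 1.26 (SE 0.42, adjusted p = 0.303) and Mcm7 at 1.06 (SE 0.37, adjusted p = 0.315). Pcna was 120, 131 and 124 CPM, Rrm2 35.4, 34.0 and 40.003 CPM, Cdk1 43.5, 35.1 and 49.7 CPM, Ccnb1 30.7, 24.3 and 27.1 CPM and Mcm2 20.002, 22.5 and 32.2 CPM, all above Control. Mki67, at 37.5, 40.7 and 43.6 CPM, Top2a, at 45.1, 60.8 and 44.2 CPM, and Ccne1, at 18.01, 11.5 and 15.6 CPM, overlapped with it. The 5 genes below 0 were Cdc6, Ccne1, Foxm1, Cenpe and Cenpf, the last 2 being large kinetochore proteins.

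**Figure D3:**
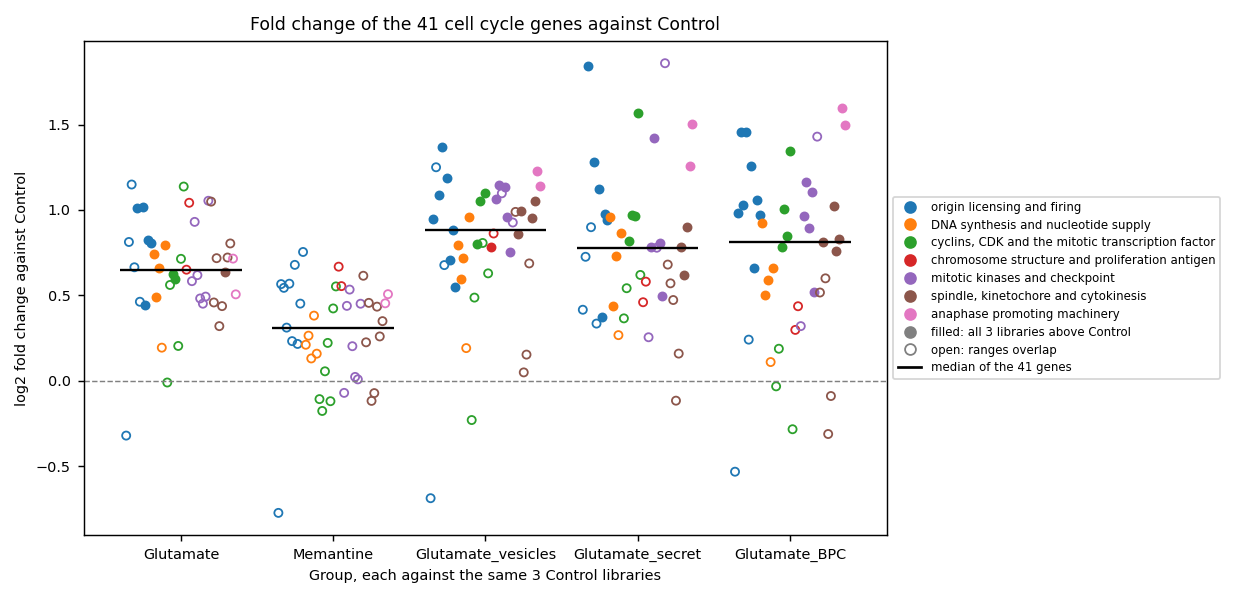
log2 fold change of each of the 41 genes against the same 3 Control libraries, by group, with colours for role, filled points where all 3 libraries lay above all 3 Control libraries and lines at the medians of 0.65, 0.31, 0.88, 0.78 and 0.82. Glutamate shows 12 filled points, Memantine 0, Glutamate_vesicles 26, Glutamate_secret 23 and Glutamate_BPC 27, and Cdc6 is the lowest point in 4 of the 5 groups.

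These counts also moved with the scaling. As CPM without ribosomal RNA rows and without TMM, the genes above Control without overlap numbered 3 for Glutamate, 14 for Glutamate_vesicles, 9 for Glutamate_secret and 17 for Glutamate_BPC, against 2.27%, 6.88%, 3.71% and 10.3% of all genes on that scale. Those above Glutamate numbered 2, 4 and 6 for the 3 preparations in the same order, against 3.7%, 0.785% and 4.6% of all genes. Over 10 alternatives, 39 to 41 genes were above 0 against Control in Glutamate, 38 to 41 for Glutamate_vesicles, 39 to 40 for Glutamate_secret and 36 to 38 for Glutamate_BPC. With single libraries left out, the lowest of these counts were 34, 37, 34 and 34. Against Glutamate the counts were less steady, at 25 to 33 for Glutamate_vesicles, 13 to 27 for Glutamate_secret and 22 to 29 for Glutamate_BPC over the same alternatives.

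Glutamate_vesicles was set against Memantine as 2 treatments given with glutamate. Fold changes were above 0 for 38 of 41 genes (background 45.9%) with a median of 0.59, which was 0.35 without Memantine 1 and 1.01 without Memantine 3, and Bub1, Plk1, Ttk, Tpx2 and Prc1, all of mitosis, separated upwards (background 2.95%). An unadjusted p below 0.05 was reached by 4 genes, all higher by more than 1.5-fold (background 1.25%), and 22 were higher for all 3 numbers (background 17%). By edgeR's quasi-likelihood test 0 of 41 and 0% of all genes passed, and edgeR's likelihood-ratio test and DESeq2 called 0. The smallest p-values belonged to Tpx2 (0.69, SE 0.29, edgeR adjusted p = 0.605), Plk1 (0.93, SE 0.41, adjusted p = 0.618) and Ccnb1 (0.83, SE 0.38, adjusted p = 0.649). The 4 genes past an unadjusted p of 0.05 became 18 in the replicate-block fit (4.05% of all genes in that fit), 0 without Memantine 1, Memantine 2 or Glutamate_vesicles 3, 2 without Glutamate_vesicles 1 and 19 without Memantine 3 (6.55% of all genes in that fit). Without Memantine 3, 4 genes were called by edgeR against 2.44% of all genes: Ccnb2 (1.91, SE 0.38, adjusted p = 0.0195), Pcna (1.48, SE 0.30, adjusted p = 0.0229), Ccnb1 (1.44, SE 0.34, adjusted p = 0.0433) and Cdk1 (1.89, SE 0.45, adjusted p = 0.0439). The neuron marker sum of Memantine 3 was 656 CPM, as in the glutamate groups, and its label was kept.

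Tested across all 6 groups at once, 0 of the 41 genes differed by edgeR's F test, against 1 of 14398 genes (0.00695%), with 1 gene, Cdc20, at an unadjusted p below 0.05 (background 7.75%) and 0 called by edgeR's likelihood-ratio test and DESeq2. Cdc20 (adjusted p = 0.626), Tpx2 (adjusted p = 0.682) and Ccnb1 (adjusted p = 0.712) had the smallest p-values in that edgeR test. Without Memantine 3, 4 genes were called, Pcna (edgeR adjusted p = 0.0234), Ccnb2 (0.031), Cdk1 (0.0319) and Cdc20 (0.0357), against 3.41% of all genes.

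The other genes of the cycle, 75 listed in 6 groups and 74 of them tested, gave a similar picture in Glutamate against Control, with 66 of 74 above 0, a median of 0.57 and 0 called by edgeR's quasi-likelihood test, 5 being at an unadjusted p below 0.05, a share under the background of 8.11%, and 0% of all genes being called. Among 20 other S phase genes the median was 0.57, and Lig1, the replicative DNA ligase, was 34.8, 38.4 and 34.2 CPM in Control and 53.2, 52.8 and 59.9 CPM in Glutamate (0.63, SE 0.27, edgeR adjusted p = 0.545). Cdca7 had a log2 fold change of 0.73 (SE 0.47), with overlap. Among 19 other mitotic genes the median was 0.63, and Cenpa, the centromeric histone, was 4.00, 5.35 and 8.45 CPM in Control and 9.81, 10.7 and 10.2 CPM in Glutamate; Ndc80 of the kinetochore did not overlap either (0.64, SE 0.33), and Kif4a did (0.68, SE 0.43). The 6 G1 cyclins and kinases were all above 0, and all 6 overlapped, with Cdk6 at 1.04 (SE 0.49), Ccnd3 at 0.66 (SE 0.43) and Ccnd1 at 0.88 (SE 0.70). Of the 14 pocket proteins and E2F factors 13 were above 0, Mybl2 (0.85, SE 0.40) and E2f2 (1.05, SE 0.52) without overlap and E2f4 (0.62, SE 0.37) with it.

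Of the 7 inhibitors of cyclin-dependent kinases 5 were above 0 and 2 below. Cdkn1a, which encodes the kinase inhibitor p21, was 33.7, 66.3 and 49.5 CPM in Control and 112, 167 and 107 CPM in Glutamate, without overlap (log2 fold change 1.37, SE 0.38, edgeR adjusted p = 0.282). Cdkn2b, which encodes p15, was 0.285, 1.96 and 4.57 CPM in Control and 6.71, 5.77 and 8.17 CPM in Glutamate (1.51, SE 0.69, edgeR adjusted p = 0.597). Cdkn2d, which encodes p19, was at -0.59 (SE 0.48), with overlap. Of the 8 p53 targets that slow the cycle, Plk2, a Polo-like kinase that neurons also make with activity, was 30.2, 72.1 and 55.6 CPM in Control and 9.29, 15.9 and 8.07 CPM in Glutamate (-2.25, SE 0.64, edgeR adjusted p = 0.287). Sesn1, a stress-response sestrin, was also below Control in every Glutamate library (-0.67, SE 0.29, adjusted p = 0.547), and Btg2, an antiproliferative gene, above it (0.76, SE 0.38, adjusted p = 0.663).

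The markers of the cell types had these values in the same comparison. All 10 neuron markers had fold changes below 0 in Glutamate against Control, with a median of -1.52, and all 10 were above 0 in Memantine against Glutamate, with a median of 1.41. Of the 10 astrocyte markers 9 were above 0 (median 0.63), of the 6 oligodendrocyte precursor markers 6 (median 0.65), and of the 10 microglia markers 10 (median 1.03), so these medians stood near or above the 0.65 of the cell cycle genes. In Glutamate_vesicles, Glutamate_secret and Glutamate_BPC against Control, the astrocyte medians were -0.01, 0.17 and 0.15 and the oligodendrocyte precursor medians 1.22, 0.90 and 0.81, beside 0.88, 0.78 and 0.82 for the 41 genes. Neural progenitor markers summed to 1666 to 2954 CPM in Control and 2171 to 5140 CPM in Glutamate. Their sums were 3274 to 5279, 3584 to 4479 and 3639 to 4795 CPM in Glutamate_vesicles, Glutamate_secret and Glutamate_BPC. Fibroblast and mural markers summed to 57.8 to 171 CPM in Control and 63.2 to 404 CPM in Glutamate. In the other groups, in the same order, they summed to 280 to 675, 353 to 814 and 299 to 612 CPM. The part of any of these cell types in the cell cycle result was not tested.

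The replicate number, which the labels give without saying what it marks, was called for more genes than the group was. In a model with group and number, the number was called for 24 of the 41 genes by edgeR's F test, against 60.4% of all genes, so the share was near the background. The smallest p-values were those of Birc5 (adjusted p = 0.00104), Mcm4 (adjusted p = 0.00172) and Ube2c (adjusted p = 0.00232). A supplement of the study removes a covariate named day before its ordination of the libraries; the sources used here do not tie that day to the number. Libraries numbered 2 had ribosomal RNA shares of 3.04% to 8.15%, those numbered 1 of 13.4% to 43.0% and those numbered 3 of 6.58% to 26.6%. With the log2 ribosomal RNA share in the model the number was called for 0 of the 41 genes by edgeR and 0.472% of all genes, so number and ribosomal RNA share cannot be told apart here.

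The 41 genes differed in both directions between numbers, as did all genes. Between numbers 2 and 1, edgeR called 12 genes higher and 8 lower, against 32.8% and 28.5% of all genes. Birc5 ran from 12.98 to 54.6 CPM with a median of 37.3 CPM over the 6 libraries numbered 1, from 3.11 to 17.5 CPM with a median of 8.11 CPM over those numbered 2, and from 9.53 to 64.2 CPM with a median of 29.2 CPM over those numbered 3. Its log2 fold change between numbers 2 and 1 was -1.96 (SE 0.35, edgeR adjusted p = 0.000382). Cdc6 (-1.74), Gmnn (-1.37), Ube2c (-1.15), Ccne1 (-0.88), Mcm7 (-0.67), Aurka (-0.64) and Nusap1 (-0.63) were lower with it. Mcm4, in contrast, ran from 9.12 to 21.8 CPM with a median of 12.1 CPM over number 1 and from 21.7 to 42.6 CPM with a median of 38.7 CPM over number 2 (1.39, SE 0.28, edgeR adjusted p = 0.000692).

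Mki67 and Top2a belonged to the genes higher in number 2. Mki67 had medians of 33.8, 68.0 and 40.3 CPM over numbers 1, 2 and 3 and differed by 0.79 on the log2 scale between 2 and 1 (SE 0.24, edgeR adjusted p = 0.00952), and Top2a medians of 40.6, 74.4 and 51.6 CPM and a log2 fold change of 0.98. Ccne2 (1.85), Kif11 (1.73), Bub1 (1.66), Mcm4 (1.39), Kif23 (1.18) and Aurkb (1.07) led the same side, followed, besides Mki67 and Top2a, by Bub1b, Kif20a, Tyms and Prc1. The 2 E-type cyclins thus lay on opposite sides, Ccne1 lower and Ccne2 higher in number 2. Between numbers 3 and 1, edgeR called 0 of the 41 genes, with 12 at an unadjusted p below 0.05 (background 23.9%) and 1.52% of all genes called; this contrast was not run with other tools. Between numbers 2 and 3, 3 genes were called higher (Bub1, Mcm4 and Tyms) and 12 lower, against 19.8% and 22.1% of all genes.

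**Figure D4:**
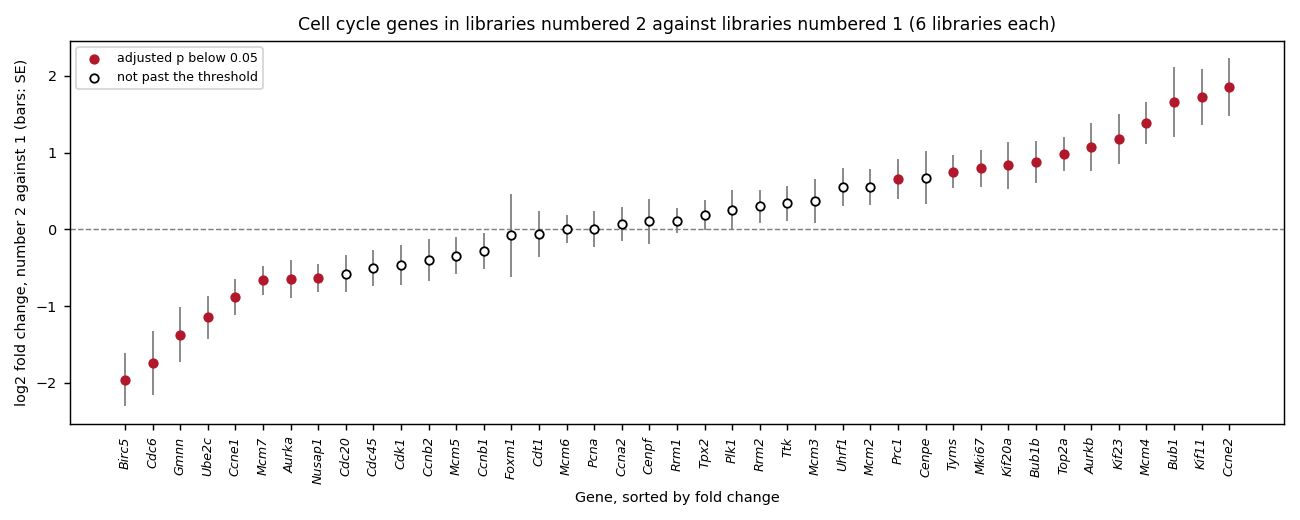
log2 fold change of each of the 41 genes between libraries numbered 2 and libraries numbered 1, sorted, with bars of 1 SE and red points where edgeR's adjusted p was below 0.05. Birc5 lies lowest at -1.96 and Ccne2 highest at 1.85, with 8 red points below 0 and 12 above.

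Over the 18 libraries, which share group, number and scaling, the members did not follow 1 profile. Among 820 pairs the Pearson correlation of log2 CPM ranged from -0.87 to 0.97 with a median of 0.48, and 187 pairs were below 0. The 3 genes most like Mki67 were Tyms (r = 0.84), Top2a (r = 0.83) and Kif11 (r = 0.80), and the least like it was Ccne1 (r = -0.80). Birc5 followed Gmnn (r = 0.97) and ran against Mki67 (r = -0.62). The genes also differed in how far they ranged: Rrm1 spanned 1.06 on the log2 scale over the 18 libraries, Mcm6 1.35 and Tyms 1.39, while Gmnn spanned 4.05, Birc5 4.31 and Bub1 4.56.

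**Figure D5:**
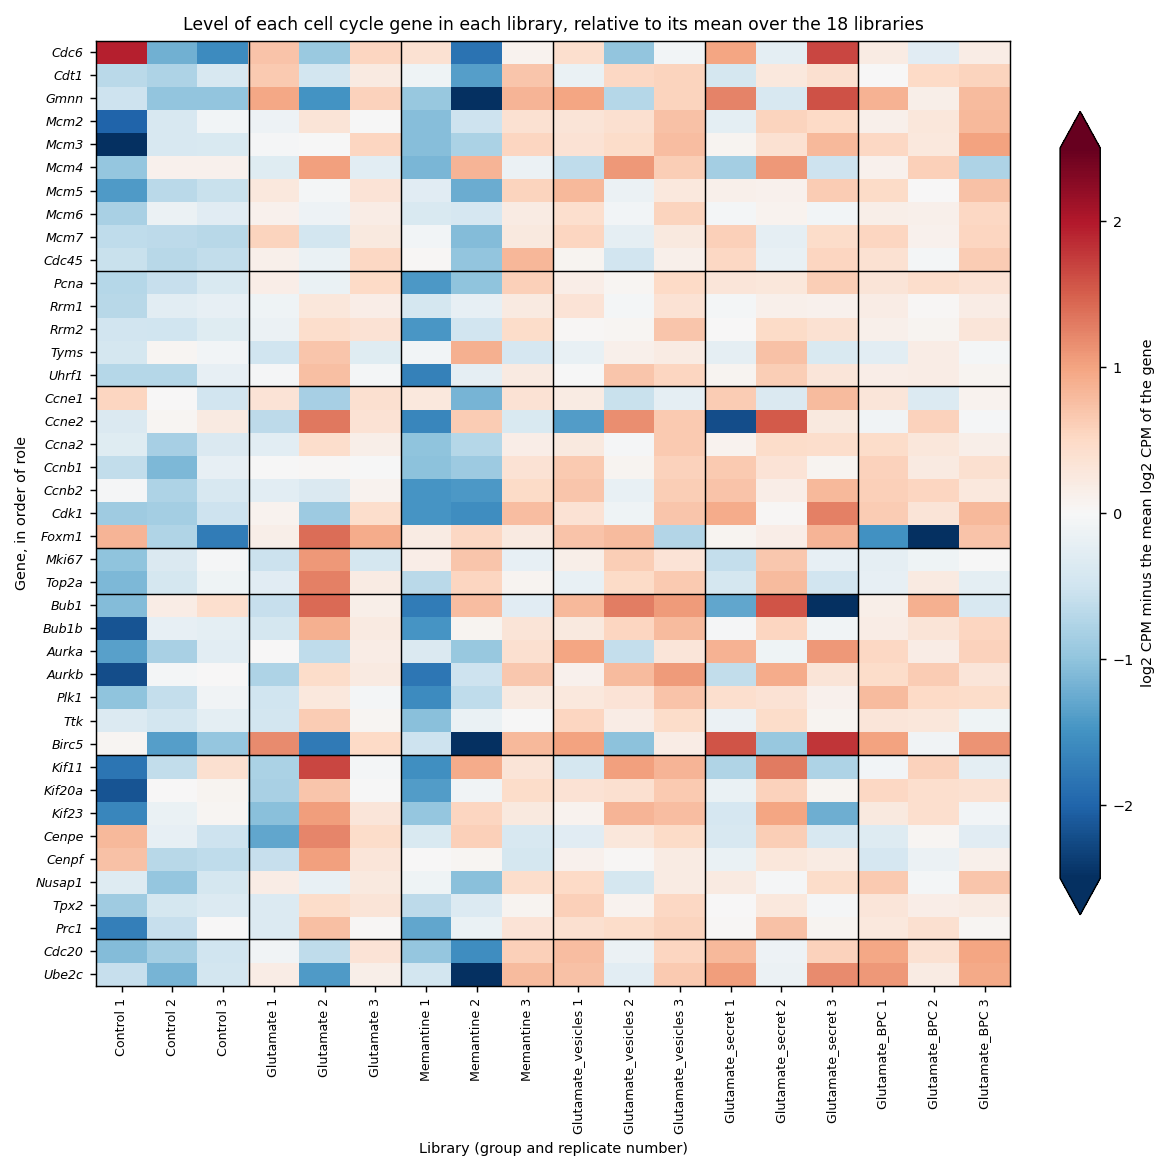
Each row is 1 of the 41 genes in order of role and each column 1 library; the colour is log2 CPM minus the mean of that gene over the 18 libraries, red above and blue below, with the scale ending at 2.5 in both directions. Blue prevails in the 3 Control libraries and in Memantine 1 and Memantine 2. Birc5, Gmnn and Ube2c are bluest in Memantine 2, while Kif11, Top2a and Mki67 are reddest in Glutamate 2.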

How the data were processed

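The deposited tables hold estimated counts (expected counts) per gene for 18 libraries; the authors used Trimmomatic and Cutadapt for trimming and Salmon for quantification against Ensembl rat transcripts (rn6) and summed transcripts to genes with tximport. The labels also name STAR. The versions of Trimmomatic, Cutadapt and Salmon are not given in the sources used here, and library kit and sequencer differ between labels and methods. Counts were rounded to whole numbers. All 6 groups entered 1 edgeR 4.0.16 quasi-likelihood fit (R 4.3.3) with TMM scaling, after a filter (minimum count 10, minimum total 15) that kept 14398 genes; p-values were adjusted by Benjamini-Hochberg over all of them at 0.05. A second criterion, used in the study's results, was an unadjusted p below 0.05 with a fold above 1.5; its methods state the adjusted one. log2 CPM used a prior count of 2. The fit was tested on simulated data. Alternatives used DESeq2 1.42.0, other scalings, a replicate block and left-out libraries. The members and gene lists were chosen with earlier results of these data known, and the within-number, replicate-number and 2-library alternatives after seeing the data. All 41 genes are named by role; values by library were given for Mki67, Top2a, Cdk1, Ccnb1, Mcm2, Pcna, Rrm2 and Ccne1, statistics for the 3 genes with the smallest p in each comparison, and of other cycle genes the 3 with the smallest p per list; genes named beyond that were chosen after their values were seen, and 1 gene that the rule names is not reported here. Same-numbered libraries deviated together (every correlation over 0.1) in 5 of 10 comparisons: Memantine, Glutamate_secret and Glutamate_BPC against Glutamate, and Glutamate_vesicles against Control and Memantine.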

Additional observations from a re-analysis of the deposited data

How the results depend on the processing

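The count of cell cycle genes called by adjusted p stayed at 0 in every setting run for Glutamate against Control, for the 3 preparations against Glutamate and for Memantine against Control. In Memantine against Glutamate it was 0 to 1 with single libraries left out, 1 without Memantine 3, and 1 with Control 1 and Memantine 3 both left out. In Glutamate_vesicles against Memantine it was 0 to 4 with single libraries left out and 7 with both out. Across the 6 groups it was 0 to 4 and 2. With 2 Memantine libraries their spread is taken from the other groups. No share of all genes stands beside the counts with both libraries out, so they cannot be read as particular to the cell cycle genes. DESeq2 called 1 gene, Tpx2, in Glutamate_vesicles against Control, beside 3.39% of all genes. The replicate block, where numbers did not pair the libraries, called 2 genes in Glutamate_secret against Control (Cdk1 and Aurka; 4.83% of all genes in that fit) and 1 in Glutamate_BPC against Control (Cdc20; 1.74%), shares near the background; in the other comparisons it changed no call by adjusted p. The count for replicate numbers was 24, 17 to 26 with single libraries left out, and 0 with the ribosomal RNA share as covariate. Of 480 fold changes of named genes recomputed, 472 kept direction and side of the threshold, 7 passed it and 1 reversed, Mcm5 in Memantine against Control, to -0.12 with both libraries out. The genes past an unadjusted p of 0.05 and 1.5-fold ranged over the other alternatives from 1 to 12 in Glutamate, 4 to 27 in Glutamate_vesicles, 1 to 22 in Glutamate_secret and 8 to 24 in Glutamate_BPC against Control, the lowest without TMM. The cause was not tested. No share of all genes is set beside these ranges, and the replicate block raised that share too in Glutamate_vesicles against Control. The ranges can therefore not be read as particular to the cell cycle genes. Control 1 held 2270 counts for the 41 genes, the fewest, which limits the precision of each comparison with Control.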
